A study of Mus musculus with 8 samples.

Results

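Collagen genes were examined in Lewis lung carcinoma (LLC) tumors, which grow from a mouse lung cancer line placed under the skin. The genes were chosen by name, as all protein-coding mouse genes whose symbol reads Col, a number, a and a number, and there were 44 of them among the 55487 genes counted. RNA was sequenced from 8 tumors taken at day 12 from female C57BL/6J mice aged 6 to 8 weeks at the start. Of these, 4 grew from wild-type cancer cells and 4 from cancer cells labelled Ago2 knock-out (ΔAgo2), which were made with a lentiviral CRISPR guide and then cloned. The ΔAgo2 arm is therefore 1 clone, and the host mice kept their own Ago2 in both arms. Ago2 is the protein that carries microRNAs and cuts matching transcripts. All values are from whole tumors, in which fewer cells of a type and less RNA per cell cannot be told apart.

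Collagens are the proteins of the extracellular matrix built from 3 chains wound into a helix. Fibrillar collagens form the cables of connective tissue and are made mainly by fibroblasts, network collagens such as collagen IV form the sheets of basement membranes around vessels and epithelia, and collagen VI forms beaded filaments between both. Many collagen transcripts are known targets of the miR-29 microRNA family, and in tumors the collagen matrix is known for stiffening the tissue and hindering immune cell entry.

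Total gene counts ran from 7903288 in wild-type tumor 4 to 268564145 in ΔAgo2 tumor 4. At that depth a count of 0 allows up to 0.43 CPM (counts per fixed library total, scaled with TMM factors) in the shallowest library and 0.0105 CPM in the deepest, for counting error only. Ago2 itself stood at 129.8 to 194.9 CPM in wild-type and 118.2 to 354.5 CPM in ΔAgo2 tumors, with a log2 fold change of 0.64 (adjusted p = 0.205, edgeR), so its transcript does not check the labels. The 10 skeletal muscle markers summed to 271 to 3500 CPM in wild-type and 55.8 to 222 CPM in ΔAgo2 tumors, without overlap. All 10 had a log2 fold change below 0, with a median of -2.62, and 1, Myh2, was called lower. Their part in the lower collagen values was not tested. Wild-type tumor 3 held the 3500 CPM, against at most 480 CPM elsewhere, and had 15.3 CPM over 10 skin keratinocyte markers against 182 to 971 CPM. ΔAgo2 tumor 1 was the lowest of the 8 tumors in 15 of the 30 collagens tested, and its 7 macrophage markers summed to 3030 CPM against 1480 to 2180 CPM in the others. Adipocyte markers were high in wild-type tumor 3 and ΔAgo2 tumor 1, at 102 and 144 CPM against 12.3 to 33.8 CPM, and Schwann cell markers ran from 109 to 153 CPM. All fibroblast, endothelial and macrophage markers were detected in every tumor. Genes rich in GC had lower log2 fold changes across all 16059 genes with both values (Spearman -0.56, across genes that are not independent replicates). The collagens tested are rich in GC, with a median of 56.5% against 49.8% for all genes tested. Among these 30 collagens the Spearman value was -0.05. Values from a fit with a GC correction, which takes out the trend over all genes library by library, are also given. They stand beside the main ones wherever they differed by over 1.5 times, turned the sign or changed a call.

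The miR-29 seed is shown first because Ago2 carries it and because it is shared by the family. The mature sequences (RefSeq, GRCm38.p6) are given with bases 2 to 8, the seed, in capitals. They differ only outside the seed.

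miR-29a-3p: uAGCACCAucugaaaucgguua

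miR-29b-3p: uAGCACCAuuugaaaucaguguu

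miR-29c-3p: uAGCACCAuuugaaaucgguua

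The 7 bases that pair with this seed, TGGTGCT, occurred in the annotated 3'UTR of 24 of the 44 collagens, at 43 places in all. Among the collagens tested the share was 17 of 30 (56.7%), against 13.6% of the 13787 genes tested with an annotated 3'UTR, whose 3'UTRs differ in length. Examples are shown for genes with results below (GENCODE M21, GRCm38, transcript strand, seed match in capitals). They come from both chains of collagen VI that stood apart, from the leading fibrillar collagens, from a basement membrane chain, and from the gene of the anchoring fibril.

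Col1a1, chr11:94952523-94952547, plus strand: gtgggaaggaatttcTGGTGCTata

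Col3a1, chr1:45348967-45348991, plus strand: ttcaaaatgtctcaaTGGTGCTata

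Col4a1, chr8:11199759-11199783, minus strand: gccaccgtcacaacaTGGTGCTact

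Col6a2, chr10:76596168-76596192, minus strand: tctccatcccatctgTGGTGCTaat

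Col6a3, chr1:90767409-90767433, minus strand: cgtgacctgtcaataTGGTGCTaaa

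Col7a1, chr9:108984580-108984604, plus strand: ctgctgtgctccattTGGTGCTaga

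A match is a description of the letters and not a tested site. The 17 tested collagens with a match had a median log2 fold change of -0.67, with 4 above 0, and the 13 without one had a median of -0.43, with 3 above 0. Over all genes tested the medians were 0.17 for the 1879 genes with a match and 0.03 for the 11908 without. After the GC correction the medians were -0.35 and -0.19 for collagens with and without a match, and 0.09 and 0.00 for all genes. The collagen medians were below 0 with and without a match, before and after the GC correction. Col6a2 and Col6a3, a pair chosen after its values were seen, carried 1 match each and stood on opposite sides of 0. Col6a1, which carried none, was at -0.92. The part of miR-29 in these values was not tested.

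By level, collagen transcripts in these tumors were mostly those of a few genes. Levels of different genes are compared here in TPM, the authors' values per gene length. Of the 44 genes, 10 had a mean of at least 100 TPM over the 8 tumors and together made up 93.7% of the collagen TPM, and 22 had at least 1 TPM. Col3a1, the chain of collagen III, was highest with a mean of 1129 TPM, followed by Col18a1 (726.1 TPM), the source of endostatin in vessel basement membranes, Col6a1 (399.9 TPM), Col4a1 (266.2 TPM) and Col1a1 (205.6 TPM). The lengths behind these TPM values count all annotated exons, 6563 bases for Col1a1 and 12426 for its partner chain Col1a2. Collagens typical of cartilage or of kidney membranes, among them Col10a1, Col9a1, Col4a3 and Col4a4, were at or near 0.

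Summed by class, the 11 fibrillar collagens stood at 1547, 2488, 2296 and 1440 TPM in wild-type tumors 1 to 4. In ΔAgo2 tumors 1 to 4 they stood at 580.3, 1841, 1554 and 1745 TPM. The groups overlapped, and ΔAgo2 tumor 1 was far below the rest. The 8 basement membrane collagens stood at 1162 ± 304.3 TPM (SD, n = 4) in wild-type and 1237 ± 489.7 TPM (SD, n = 4) in ΔAgo2 tumors. The 8 beaded filament and anchoring collagens stood at 748 ± 197.8 TPM (SD, n = 4) and 570.6 ± 221.7 TPM (SD, n = 4). None of the 6 classes separated the genotypes. All 44 genes together made up between 0.142% of the TPM, in ΔAgo2 tumor 1, and 0.534%, in wild-type tumor 2.

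**Figure D1:**
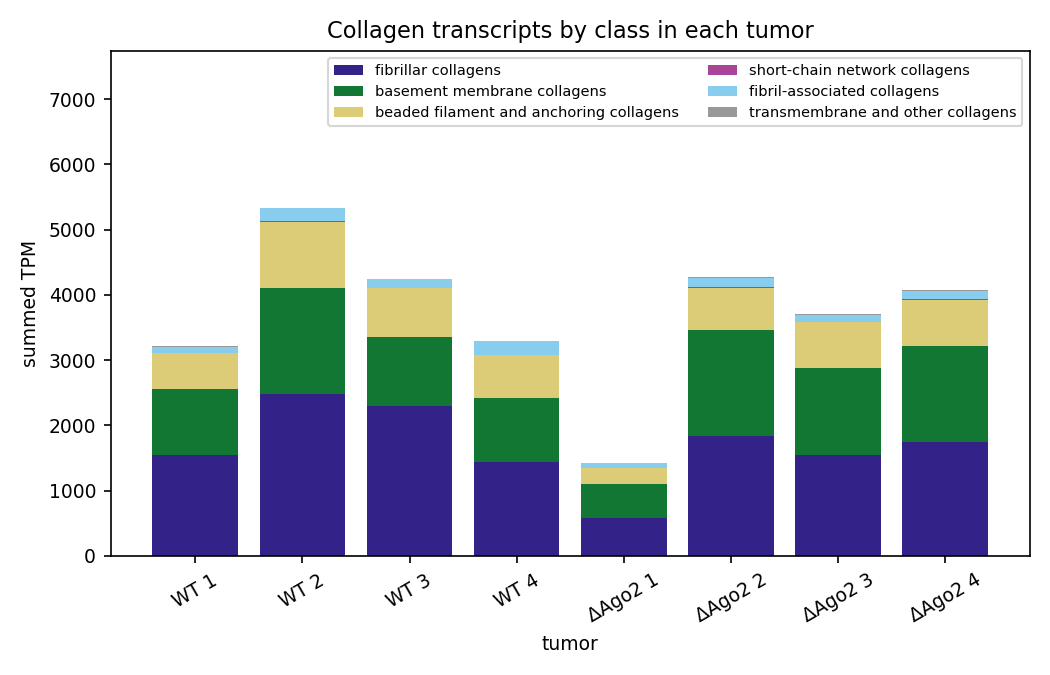
Summed TPM of the collagen genes in each of the 8 tumors (WT, wild-type), with bar segments for the 6 classes. Fibrillar collagens took the largest share of each bar, and ΔAgo2 tumor 1 had the shortest bar, at 1422 TPM.

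Of the 44 genes, 30 had enough counts to be tested. By the quasi-likelihood test of edgeR, with p-values adjusted after Benjamini and Hochberg over all 16061 genes tested, 1 collagen, Col2a1, was called lower in ΔAgo2 tumors, against 2.12% of all genes, and 0 were called higher, against 1.36% of all genes. At an unadjusted p under 0.05 there were 13 collagens, 11 lower and 2 higher, against 26.7% of all genes in both directions. DESeq2 called 8 collagens, all lower, against 14.9% of all genes, and limma voom with quality weights called 8, of which 5 were lower and 3 higher, against 27.9%. The voom weights ran from 0.233 for ΔAgo2 tumor 1 to 5.274 for ΔAgo2 tumor 4, so voom calls lean on some tumors more than others. By sign alone 23 of the 30 stood below 0, with a median log2 fold change of -0.53 against 0.04 for all genes tested. After the GC correction 17 stood below 0 and the median was -0.23 against 0.00.

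The distance between collagens and all genes varied with GC content. In the bin from 45% to 50% GC, 5 collagens had a median log2 fold change of -0.67 where all genes had 0.20. From 50% to 55% the medians were -0.37 for 5 collagens and -0.12 for all genes, and from 55% to 60% they were -0.64 for 13 collagens and -0.44. From 60% upward the order turned, with -0.38 for 7 collagens and -0.70 for all genes.

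Fibrillar collagens had the lowest median of the classes. Fibril-associated collagens were lower at equal depth, at -0.92 against -0.76, with at least 10 counts in every library, at -0.90 against -0.86, and by a narrow margin without wild-type tumor 2. Equal depth and the filter of 10 counts each tested 23 collagens in place of 30, so those medians rest on a smaller set. In the main fit all 10 tested fibrillar collagens had a log2 fold change below 0, with a median of -0.87 (-0.62 after the GC correction, when 2 stood above 0). Of these, 6 had an unadjusted p under 0.05 by edgeR, against 13.0% of all genes that were lower at that level. Col1a1, which encodes the main chain of collagen I and lies at chr11:94936224-94953042 on the plus strand, measured 393, 764.8, 1104 and 465.5 CPM in the wild-type tumors, numbered 1 to 4. It stood at 307.4, 254.7, 344.9 and 198.1 CPM in ΔAgo2 tumors 1 to 4. Every ΔAgo2 tumor was below every wild-type tumor, and wild-type tumor 3 was highest. The log2 fold change was -1.30 ± 0.34 (SE), a level 2.47-fold lower (adjusted p = 0.0591, edgeR), so it did not pass the threshold. Its call depended on the processing. Col1a1 passed at equal depth (adjusted p = 0.0497), with the length correction, with no count filter, with DESeq2, with voom, and without wild-type tumor 1 or ΔAgo2 tumor 1, and it was at -0.97 (adjusted p = 0.0681, edgeR) without wild-type tumor 3 and at -0.88 (adjusted p = 0.238, edgeR) after the GC correction.

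Col1a2, the partner chain in collagen I, had a log2 fold change of -1.22 ± 0.37 (SE) (adjusted p = 0.0860, edgeR), and its groups overlapped. DESeq2 (adjusted p = 0.0167), voom (adjusted p = 0.0245) and the length correction called it. Without wild-type tumor 3 it was at -0.69. The 10 fibroblast markers summed to 1300 to 1540 CPM in wild-type and 1320 to 1430 CPM in ΔAgo2 tumors, a sum carried mostly by Gsn and Dcn. Of these markers 7 had a log2 fold change below 0, with a median of -0.41, and 1 was called lower. It was Fap, a protease of activated fibroblasts, at 5.58 to 12.2 CPM in wild-type and 2.23 to 3.51 CPM in ΔAgo2 tumors. The markers Lum and Dcn also belong to the fibril-binding proteins read below. After the GC correction Lum moved from -0.64 to -1.14 and was called lower (adjusted p = 0.0142, edgeR). Dcn turned from 0.16 to -0.67 in that fit (adjusted p = 0.0648, edgeR). The 9 pericyte and smooth muscle markers summed to 118 to 440 CPM and 77.4 to 143 CPM, 8 stood below 0 with a median of -0.82, and none was called. Des alone made up 284.7 CPM of the sum in wild-type tumor 3, which was also highest in skeletal muscle markers. It ranged from 50.3 to 284.7 CPM in wild-type and from 11.2 to 55.4 CPM in ΔAgo2 tumors. Wild-type tumor 3 was highest in the fibroblast sum and in the pericyte and smooth muscle sum. The part of these cells in the collagen I values was not tested.

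Col3a1 (chr1:45311538-45349706, plus strand), which encodes the chain of collagen III and was the most abundant collagen, measured 3760, 5747, 4649 and 4871 CPM in the wild-type group. In ΔAgo2 tumors it stood at 1406, 3519, 3093 and 3699 CPM. The groups did not overlap, although wild-type tumor 1 and ΔAgo2 tumor 4 nearly met. On the log2 scale the difference was -0.70 ± 0.31 (SE) (adjusted p = 0.182, edgeR), and it was -0.48 without ΔAgo2 tumor 1. Col3a1 passed only with the length correction, at -1.05.

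Col27a1, a minor fibrillar collagen known from cartilage, stood at 1.59, 3.96, 2.19 and 3.58 CPM in the wild-type group. It stood at 1.27, 1.26, 0.985 and 0.987 CPM in ΔAgo2 tumors, all below the wild-type values. Its log2 fold change was -1.30 ± 0.37 (SE) (adjusted p = 0.0749, edgeR). DESeq2 and voom called it, and after the GC correction it was at -0.68 (adjusted p = 0.198, edgeR). The chains of collagen V, which sets fibril width, were closer to 0, with log2 fold changes of -0.24 for Col5a1, -0.67 for Col5a2 and -0.38 for Col5a3, and Col5a1 and Col5a3 stood above 0 after the GC correction, at 0.31 and 0.37. Of the remaining tested fibrillar genes, Col24a1 was at -0.37, while Col11a1 had too few counts to be tested. Col11a2 was at -1.03 (adjusted p = 0.121, edgeR) and at -0.19 (adjusted p = 0.723, edgeR) after the GC correction, and DESeq2 and voom called it.

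Col2a1, the chain of cartilage collagen II at chr15:97975602-98004695 on the minus strand, was the only collagen called by the main test, and it was barely expressed. It had 41, 72, 113 and 1 counts in wild-type tumors 1 to 4, or 0.768, 3.43, 2.37 and 0.143 CPM. In ΔAgo2 tumors it had 1, 11, 7 and 22 counts, or 0.0205, 0.0964, 0.209 and 0.0770 CPM. The groups overlapped, since wild-type tumor 4, the shallowest library, lay below ΔAgo2 tumor 3. The log2 fold change was -4.20 ± 0.83 (SE) (adjusted p = 0.0262, edgeR). The call was lost after the GC correction, at -3.55 (adjusted p = 0.0514, edgeR), and without any of wild-type tumor 2 and ΔAgo2 tumors 2, 3 and 4. Without 1 tumor the log2 fold change stayed between -4.60 and -3.66. Of the cartilage and bone markers, Acan, Comp, Matn1, Ibsp, Bglap and Sp7 were at 0 in at least 1 library, and the summed list, which Sox9 and Runx2 carry, was 56 to 85.8 CPM in wild-type and 62.3 to 87 CPM in ΔAgo2 tumors.

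**Figure D2:**
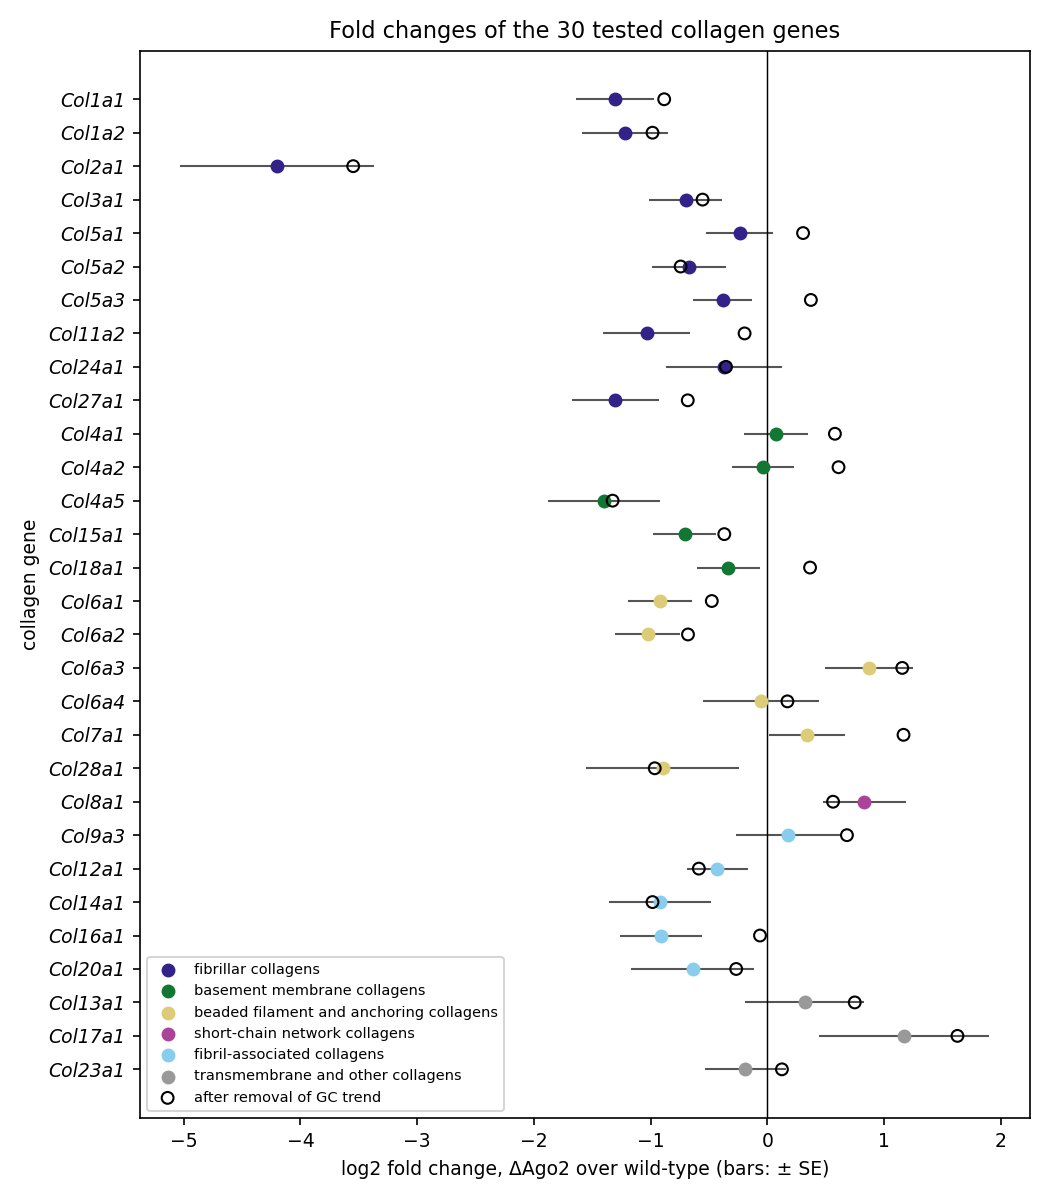
Log2 fold change (ΔAgo2 over wild-type) of the 30 tested collagens, one per row, with bars for ± SE and color for class. Open circles give the value after the GC correction, which lies to the right of the filled point for most genes, by the most for Col16a1, Col11a2 and Col7a1.

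The basement membrane collagens did not separate the genotypes as a class, and no member passed the test. Col4a1 and Col4a2, the chains of the common collagen IV network, lie head to head on chromosome 8, where their annotated exons share 22 bases on opposite strands. Col4a1 stood at 467.4, 769.3, 655.2 and 740.5 CPM in wild-type and at 390.7, 812.5, 733.4 and 834.5 CPM in ΔAgo2 tumors. The groups overlapped throughout. Its log2 fold change was 0.07, with a 95% interval of -0.53 to 0.68, and that of Col4a2 was -0.04, with an interval of -0.62 to 0.54, and differences within these intervals cannot be resolved here. After the GC correction they were 0.58 (adjusted p = 0.281, edgeR) and 0.61 (adjusted p = 0.284, edgeR).

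Col18a1 stood at 1636, 2624, 1442 and 2179 CPM in wild-type and at 1032, 1825, 1679 and 1717 CPM in ΔAgo2 tumors. The groups overlapped, and ΔAgo2 tumor 1 was lowest. On the log2 scale the difference was -0.33, with a 95% interval of -0.93 to 0.26, and it turned to 0.37 after the GC correction. Col18a1 is the middle one of the 5 tested genes of its class in both fits, so the class median is its value. The 8 endothelial markers, from cells that make much of this membrane, summed to 326 to 502 CPM in wild-type and 293 to 363 CPM in ΔAgo2 tumors. Eng carried most of that sum, at 205.6 to 357.9 CPM in wild-type and 168.2 to 219.6 CPM in ΔAgo2 tumors. Of the 8 markers 3 had a log2 fold change above 0, the median was -0.04, and none was called.

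Col4a5 (chrX:141475385-141689234, plus strand) encodes a chain of the minor collagen IV networks of kidney and skin. It stood at 4.12, 5.86, 2.96 and 4.01 CPM in wild-type and at 0.431, 1.94, 1.52 and 2.48 CPM in ΔAgo2 tumors. The groups did not overlap, and ΔAgo2 tumor 1 was lowest. The log2 fold change was -1.40 ± 0.48 (SE) (adjusted p = 0.109, edgeR), and GC correction left it at -1.32. DESeq2 and the length correction called it. Its 3'UTR held 3 miR-29 matches. Col15a1, a collagen of the zone beneath the membrane, was at -0.71 (-0.37 after the GC correction), and Col4a3, Col4a4 and Col4a6 had too few counts to be tested.

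Collagen VI gave the clearest contrast between chains of one protein. Its filaments need the chains α1, α2 and mostly α3, which are encoded by Col6a1 (chr10:76708792-76726168), Col6a2 (chr10:76595762-76623630) and Col6a3 (chr1:90765923-90843971), all on the minus strand. Col6a1 stood at 559.6, 1025, 746.1 and 922.7 CPM in the wild-type group and at 281.4, 382.6, 538.6 and 518.6 CPM in ΔAgo2 tumors. Col6a2 stood at 395.1, 730.5, 548.3 and 751.4 CPM in the wild-type group and at 207.7, 249.6, 385.1 and 349.9 CPM in ΔAgo2 tumors. For both genes every ΔAgo2 tumor lay below every wild-type tumor.

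Col6a3 went the other way in most tumors, at 154.7, 283.5, 233.2 and 168 CPM in wild-type and at 136, 522.9, 475 and 404 CPM in ΔAgo2 tumors. ΔAgo2 tumors 2 to 4 were above all wild-type tumors, and ΔAgo2 tumor 1 was below them. The log2 fold changes were -0.92 ± 0.27 (SE) for Col6a1, -1.02 ± 0.28 (SE) for Col6a2 and 0.87 ± 0.38 (SE) for Col6a3. Their adjusted p-values from edgeR were 0.0840, 0.0666 and 0.170, so none passed. After the GC correction Col6a1 was at -0.48 (adjusted p = 0.308, edgeR) and Col6a2 at -0.68 (adjusted p = 0.150, edgeR), both nearer 0, and Col6a3 was at 1.16. DESeq2 called Col6a1 and Col6a2, voom called Col6a3, and without ΔAgo2 tumor 1 Col6a3 was at 1.14 (adjusted p = 0.0280, edgeR). Because voom gave ΔAgo2 tumor 1 its lowest weight, 0.233, these 2 results for Col6a3 are not independent.

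The ratio of chains within a tumor does not depend on how libraries are scaled. In TPM, the ratio of Col6a3 to Col6a1 was 0.101, 0.101, 0.114 and 0.0667 in wild-type tumors 1 to 4. In ΔAgo2 tumors 1 to 4 it was 0.177, 0.5, 0.323 and 0.285. The groups did not overlap, also in ΔAgo2 tumor 1, where all chains of collagen VI were low. The log2 difference was 1.68, and leaving out any 1 tumor kept it between 1.43 and 1.93. Between the fitted log2 fold changes the gap was 1.79, 1.63 after the GC correction and 1.41 after the length correction, the gene lengths being 11963 and 4380 bases.

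The ratio of Col6a3 to Col6a2 behaved likewise, at 0.273, 0.270, 0.296 and 0.156 in wild-type and 0.456, 1.46, 0.859 and 0.804 in ΔAgo2 tumors. Col6a1 and Col6a2 kept a nearly constant ratio, 2.57 ± 0.164 (SD, n = 4) in wild-type and 2.74 ± 0.153 (SD, n = 4) in ΔAgo2 tumors. The ratio of Col4a1 to Col4a2 was 1.33 ± 0.129 (SD, n = 4) and 1.44 ± 0.126 (SD, n = 4), and that of Col1a1 to Col1a2 was 3.51 ± 0.758 (SD, n = 4) and 3.13 ± 0.419 (SD, n = 4). The ratio of Col5a1 to Col5a2 varied widely, from 5.11 to 19.4 in wild-type and from 10.1 to 16.3 in ΔAgo2 tumors. Of the 6 ratios, those 2 with Col6a3 separated the genotypes, and no ratio was tested.

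**Figure D3:**
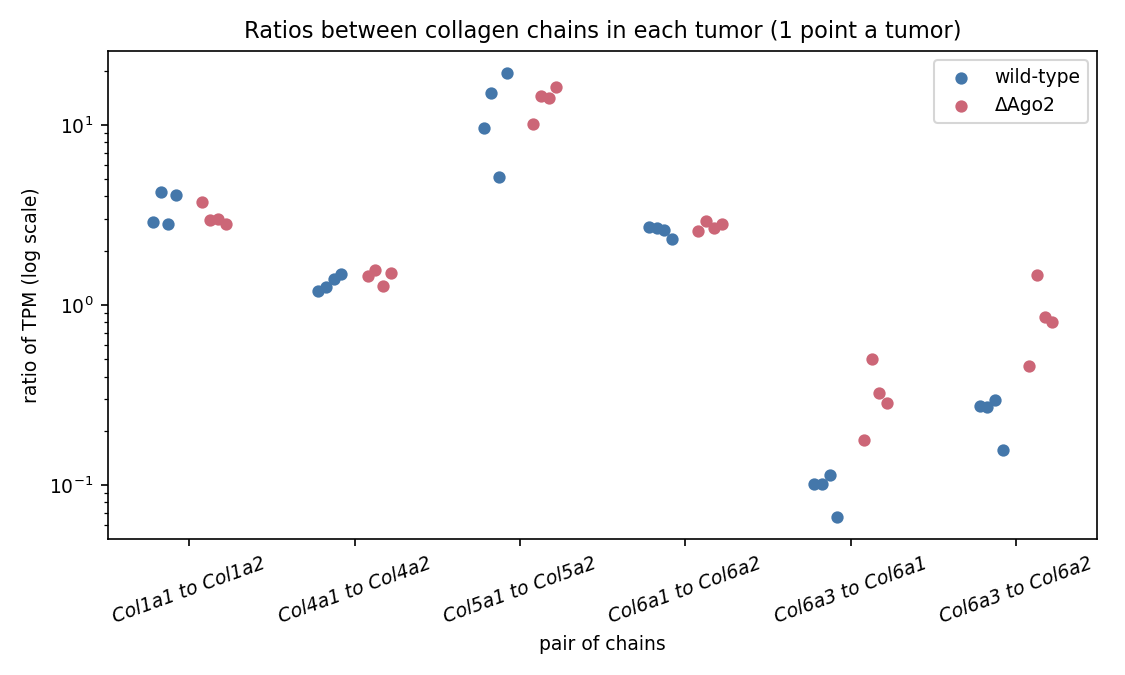
Ratio of TPM between chains of one collagen (log axis) in each tumor, wild-type in blue and ΔAgo2 in red. The points of both ratios with Col6a3 do not overlap between genotypes, while the 4 other ratios do.

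The 250 bases before the RefSeq start of Col6a2 and of Col6a3 are shown because these chains stood on opposite sides of 0 and their RefSeq and GENCODE starts coincide. Capitals mark motifs found on either strand. The GC box was searched as the letters GGGCGG, the box bound by nuclear factor Y as CCAAT, and the TATA box as the letters TATAAA, each with its reverse complement, and no motif overlapped another.

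Col6a2, chr10:76623631-76623880, minus strand, GRCm38.p6: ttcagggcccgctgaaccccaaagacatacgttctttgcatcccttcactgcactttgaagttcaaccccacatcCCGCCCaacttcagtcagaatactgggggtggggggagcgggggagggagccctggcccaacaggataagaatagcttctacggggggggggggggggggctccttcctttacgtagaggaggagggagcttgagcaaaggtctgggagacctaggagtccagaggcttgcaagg

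Col6a3, chr1:90843972-90844221, minus strand, GRCm38.p6: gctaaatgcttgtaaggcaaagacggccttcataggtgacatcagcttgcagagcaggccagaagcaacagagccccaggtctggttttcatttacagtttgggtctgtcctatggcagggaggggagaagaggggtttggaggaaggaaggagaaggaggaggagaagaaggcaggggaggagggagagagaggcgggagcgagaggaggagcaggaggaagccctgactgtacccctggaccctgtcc

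Col6a2 held 1 GC box and Col6a3 held 0, and neither window held a CCAAT or TATA box. Over 32851 promoters in the table, windows of the same length held a GC box in 32.7%, a CCAAT box in 33.8% and a TATA box in 12.4%. The 38 windows of the 35 collagen genes in the table held them in 57.9%, 34.2% and 13.2%.

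Col7a1 (chr9:108953586-108984875, plus strand) encodes the chain of the anchoring fibrils that fix epithelium to the tissue below. It stood at 70.0, 121.5, 47.8 and 143.8 CPM in wild-type and at 92.1, 140.7, 138.1 and 113.4 CPM in ΔAgo2 tumors. The groups overlapped, with wild-type tumor 3 lowest. On the log2 scale the difference was 0.34 ± 0.32 (SE) (adjusted p = 0.508, edgeR). After the GC correction it was 1.17 (adjusted p = 0.0219, edgeR), which made it the only collagen called in that fit, against 3.78% of all genes. The length correction moved it to -0.01.

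Of the other genes in this class, Col6a4 was at -0.05 (0.17 after the GC correction) and Col28a1 at -0.90, both with under 2 CPM in every tumor, and Col6a5 and Col6a6 were not tested. Among the short-chain network collagens, Col8a1, a chain made by vessel walls and endothelium, stood at 13.1, 13.4, 26.2 and 15.5 CPM in wild-type and at 19.0, 43.9, 18.7 and 40.01 CPM in ΔAgo2 tumors. The groups overlapped through wild-type tumor 3. Its log2 fold change was 0.83 ± 0.35 (SE) (adjusted p = 0.165, edgeR), and voom called it. Its partner chain Col8a2 was too low to be tested, at 10, 7, 40 and 4 counts in wild-type and 3, 3, 6 and 22 counts in ΔAgo2 tumors. Per library total these were 0.187 to 0.84 CPM and 0.0263 to 0.179 CPM, without overlap, and Col8a2 was tested and called without wild-type tumor 1. The growth plate collagen Col10a1 had 1 count in all.

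**Figure D4:**
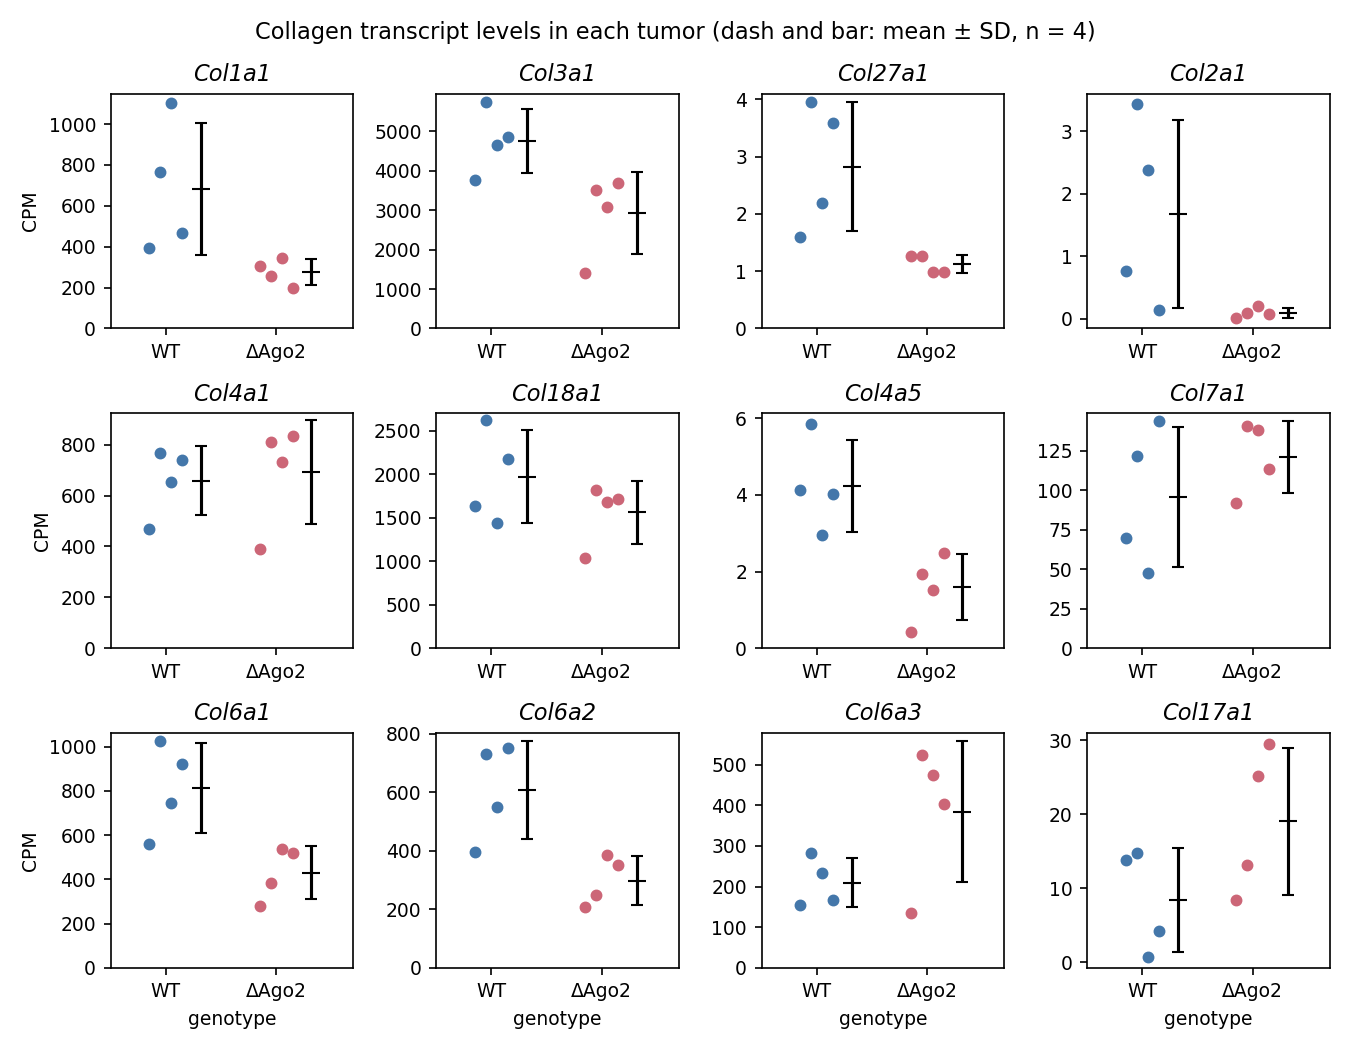
CPM of 12 collagen genes in each tumor, with dashes and bars for the mean ± SD of 4 tumors. Col1a1, Col3a1, Col27a1, Col4a5, Col6a1 and Col6a2 show groups that do not overlap, whereas Col6a3 is higher in all ΔAgo2 tumors but tumor 1.

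Counted over all tested members, 6 collagens had groups that did not overlap, all of them lower in ΔAgo2 tumors, namely Col1a1, Col3a1, Col27a1, Col4a5, Col6a1 and Col6a2. Of all genes tested, 8.34% did so in that direction. They include 3 fibrillar, 1 basement membrane and 2 beaded filament genes.

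Fibril-associated collagens, which sit on the surface of fibrils, had a median log2 fold change of -0.64 over 5 tested genes (-0.27 after the GC correction), and none passed. Col16a1, a surface collagen, stood at 201.3, 449.3, 238.4 and 669.3 CPM in wild-type and at 183.5, 242.3, 192.7 and 211 CPM in ΔAgo2 tumors. Wild-type tumors 2 and 4 were high and the other tumors overlapped. Its log2 fold change of -0.91 ± 0.35 (SE) came to -0.06 after the GC correction. Col14a1, known from dermis and tendon, stood at 11.8, 9.96, 40.7 and 9.88 CPM in wild-type and at 10.8, 9.32, 9.13 and 9.25 CPM in ΔAgo2 tumors. Wild-type tumor 3 alone stood apart, and without it the log2 fold change moved from -0.92 to -0.14. Col12a1 was at -0.43, Col20a1 at -0.64 (-0.27 after the GC correction) and Col9a3 at 0.18 (0.68 after it), while Col9a1, Col9a2, Col19a1 and Col22a1 were not tested.

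Of the transmembrane and other collagens, Col17a1 anchors basal keratinocytes to their membrane. It stood at 13.9, 14.8, 0.672 and 4.16 CPM in wild-type and at 8.37, 13.1, 25.2 and 29.5 CPM in ΔAgo2 tumors. The groups overlapped, and wild-type tumors 3 and 4 were lowest. The log2 fold change was 1.17 ± 0.73 (SE) (adjusted p = 0.314, edgeR). The 10 skin keratinocyte markers summed to 602, 624, 15.3 and 182 CPM in wild-type and to 540, 509, 955 and 971 CPM in ΔAgo2 tumors, also lowest in wild-type tumors 3 and 4, and all 10 had a log2 fold change above 0. Their part in the Col17a1 values was not tested. Col23a1 stood at 8.02, 7.15, 2.86 and 5.30 CPM in wild-type and at 3.61, 5.07, 5.64 and 6.19 CPM in ΔAgo2 tumors, with a log2 fold change of -0.19 (0.13 after the GC correction), and Col13a1 was at 0.32 (0.75 after it). Col25a1 and Col26a1 had at most 3 counts in any library and were not tested.

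The genes that fold, process and bind collagen were read from 5 lists. Of the 19 folding and modifying enzymes, 2 fell and 0 rose, against 2.12% and 1.36% of all genes tested. Their median log2 fold change was -0.21 (-0.09 after the GC correction). P4ha3, a catalytic subunit of prolyl 4-hydroxylase, which hardens the helix, stood at 5.45, 6.62, 9.85 and 10.9 CPM in wild-type and at 2.17, 1.701, 1.88 and 1.92 CPM in ΔAgo2 tumors. The groups lay far apart. On the log2 scale the difference was -2.09 ± 0.30 (SE), a level 4.25-fold lower (adjusted p = 0.00663, edgeR), and P4ha3 passed in all 8 fits without 1 tumor and after the GC correction, at -1.82. P3h3, which belongs to the 3-hydroxylase family, fell by 0.83 on the log2 scale (adjusted p = 0.0447, edgeR) but was at -0.16 after the GC correction, and it passed in 2 of 8 fits without 1 tumor. P3h2 was at -1.16 and Fkbp10, a collagen chaperone, at -0.85 (-0.38 after the GC correction), and neither passed. Serpinh1, the chaperone HSP47, was at -0.21 (0.19 after the GC correction) and P4ha1 at 0.00 (-0.34 after it), both chosen after their values were seen.

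Of the 14 genes for procollagen processing and crosslinking, 1 fell and 0 rose (2.12% and 1.36% of all genes). Their median was -0.26 and turned to 0.14 after the GC correction. Loxl3, a lysyl oxidase that crosslinks collagen, stood at 158.1, 232.7, 120.8 and 179.5 CPM in wild-type and at 57.4, 96.1, 81.0 and 73.4 CPM in ΔAgo2 tumors, without overlap. It fell by 1.17 on the log2 scale (adjusted p = 0.0328, edgeR) and by 0.95 after the GC correction (adjusted p = 0.0388, edgeR). The calls of Loxl3 and of Bgn, Eln, Tnxb and Lamb2, which follow, each held in 3 of 8 fits without 1 tumor and were lost without any of wild-type tumors 2 and 4 and ΔAgo2 tumors 2, 3 and 4, and those of Loxl3, Tnxb and Lamb2 were also lost with total counts. The call of Tnxb was further lost with DESeq2's size factors, with the upper quartile, at equal depth and with the length correction. Loxl1 was at -1.23 (-0.75 after the GC correction) and Adamts3, a procollagen peptidase with few counts, at 1.72, and neither passed.

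Among the 12 fibril-binding matrix proteins, 2 fell and 1 rose (2.12% and 1.36% of all genes). Their median was 0.11 and turned to -0.24 after the GC correction. Bgn (biglycan), a small proteoglycan on collagen I fibrils, stood at 199.1, 196.7, 289.9 and 192.7 CPM in wild-type and at 125.4, 64.7, 102.4 and 67.2 CPM in ΔAgo2 tumors, without overlap. It fell by 1.29 on the log2 scale (adjusted p = 0.0299, edgeR) and by 1.26 after the GC correction. Eln, the elastin of elastic fibers, ranged from 21.3 to 38.5 CPM in wild-type and from 4.67 to 16.3 CPM in ΔAgo2 tumors, and fell by 1.81 on the log2 scale (adjusted p = 0.0355, edgeR). After the GC correction Eln was at -1.35 and its call was lost (adjusted p = 0.0628, edgeR). Tnxb (tenascin X), which helps to organise collagen fibrils, ranged from 18.8 to 57.1 CPM in wild-type and from 72.0 to 136.7 CPM in ΔAgo2 tumors, and rose by 1.39 on the log2 scale (adjusted p = 0.0491, edgeR). Fmod had a log2 fold change of -2.53 that rested on wild-type tumor 3, at 5.82 CPM against 0 to 0.451 CPM elsewhere, and did not pass.

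In the basement membrane list, 14 of 15 genes were tested, 1 fell and 0 rose (2.12% and 1.36% of all genes). Their median was 0.02 (0.545 after the GC correction). Lamb2, the laminin β2 chain, stood at 41.1, 71.8, 53.4 and 77.7 CPM in wild-type and at 17.0, 26.7, 31.98 and 28.2 CPM in ΔAgo2 tumors, without overlap. It fell by 1.23 on the log2 scale (adjusted p = 0.0355, edgeR), and was at -0.64 (adjusted p = 0.153, edgeR) after the GC correction. Lama3, a laminin chain of skin and other epithelia, was at 1.65 and did not pass. It was lowest in wild-type tumors 3 and 4, where the keratinocyte markers were also lowest. The part of keratinocytes in the Lama3 values was not tested.

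Of the 10 collagen receptors, 9 were tested and none passed with edgeR, although 6 had an unadjusted p under 0.05, against 26.7% of all genes, of which 5 were higher, against 13.7%. The median was 0.70. DESeq2 called 3, of which 2 were higher and 1 lower, against 14.9% of all genes. Voom called 4, all higher, against 27.9% of all genes. Lair1, an inhibitory collagen receptor of immune cells, stood at 18.0, 6.62, 9.62 and 4.87 CPM in wild-type and at 23.99, 33.7, 20.9 and 20.8 CPM in ΔAgo2 tumors. The groups did not overlap, and the log2 fold change was 1.32 ± 0.37 (SE) (adjusted p = 0.0726, edgeR). The integrin chains Itga2 and Itga10, which bind collagen with β1, were at 1.18 (0.72 after the GC correction) and 1.02 and did not pass. The receptors have a median GC content of 45.1%, where the GC trend runs upward, and their median after its removal was 0.38.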

How the data were processed

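Poly(A) RNA of 8 LLC tumors was sequenced per the labels with a stranded kit. The authors deposited raw gene counts, whole numbers per gene with no normalization, and TPM values, which divide counts by gene length and scale each library to a fixed total. mm10 and STAR are named in the submitters' processing notes, and the paper's methods name featureCounts for cultured cells. Strand and multi-mapping settings were not given in the sources used here, so reads of overlapping genes, among them Col4a1 with Col4a2 and Col5a1 with antisense transcripts, are uncertain. Identifiers were matched to GENCODE M21, 99.29% of 55487 with their version, and all 44 collagens matched.

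Counts were analysed with edgeR 4.0.16 in R 4.3.3 (filterByExpr, TMM, quasi-likelihood test, no covariate, Benjamini-Hochberg over the 16061 genes tested, threshold 0.05) and checked on simulated data. Standard errors are the absolute log2 fold change divided by the square root of F. GC content and length were corrected with offsets from per-library trends, fitted where the mean count reached 50. Alternatives were DESeq2 1.42.0, limma 3.58.1 (voom with quality weights, or log2(TPM + 1) and log2(TPM + 0.1)), other scalings and filters, thinning to 7903288 counts, the replicate number as a block, and leaving out each tumor. GC content was taken from the longest annotated transcript of each gene. Tumors are biological replicates per the labels.

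Values in each tumor were given for collagens called in the main or GC-corrected fit, the 2 highest in TPM in each class, and the 5 highest and lowest fold changes among genes whose groups did not overlap. In the other lists the called genes and the 3 with the largest absolute log2 fold change were named, except 1 gene that is not reported here. Col1a2, Col4a2 and Col6a3 were added for the chain ratios. Single marker genes were named after their values were seen. Collagens and lists were chosen with earlier results of these data known.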

Additional observations from a re-analysis of the deposited data

Results flagged for a closer look

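Values of 4 tumors were screened with Dixon's gap test at its 95% critical value in 56 groups, covering the collagens named with a value in each tumor, the class sums and the chain ratios. Chance flags about 1 in 20 groups, or 2.8 of these, and 5 values were flagged. Wild-type tumor 3 had 40.7 CPM of Col14a1, against 9.89 to 11.8 CPM for the rest of its group, and ΔAgo2 tumor 1 had 10.8 CPM against 9.13 to 9.32 CPM. The basement membrane collagens summed to 1620 TPM in wild-type tumor 2 against 974 to 1050 TPM. The beaded filament and anchoring collagens summed to 241 TPM in ΔAgo2 tumor 1 against 641 to 702 TPM. The short-chain network collagens summed to 10.2 TPM in wild-type tumor 3 against 4.24 to 5.08 TPM.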

How the results depend on the processing

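Of the 30 tested collagens, edgeR called 1, and the count was 8 with DESeq2's Wald test and with limma voom, 6 with the length correction, 2 with no count filter, and 0 with at least 10 counts in every library and with limma on log2(TPM + 1) or log2(TPM + 0.1). The GC correction also called 1, but Col7a1 in place of Col2a1. Without 1 tumor the count ran from 0 to 4. The median over fibrillar, fibril-associated and all collagens moved to -0.36, -0.14 and -0.13 with log2(TPM + 1). With log2(TPM + 0.1) these medians were -0.62, -0.40 and -0.16, and why they moved was not tested. The basement membrane median, which is the Col18a1 value in the main and GC-corrected fits, turned to 0.37 with the GC correction, and the cause was not tested.

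Folding enzymes called numbered 2 in the main fit, 6 with DESeq2 and with voom, 4 at equal depth, and 1 with the GC correction, with limma on either TPM scale, with no count filter and with total counts. They ran from 1 to 4 without 1 tumor. Processing and crosslinking genes numbered 1, then 3 with DESeq2, 8 with voom, 0 with total counts and on either TPM scale, and 0 to 3 without 1 tumor. Fibril-binding proteins numbered 3, then 6 with voom, 0 on either TPM scale and 0 to 5 without 1 tumor. Basement membrane partners numbered 1, then 5 with voom, 3 with DESeq2 and with the length correction, 2 with no count filter, 0 with the GC correction, with total counts and on either TPM scale, and 0 to 2 without 1 tumor. Receptors numbered 0, then 4 with voom, 3 with DESeq2, 1 with no count filter and 0 to 1 without 1 tumor. These counts join both directions. Voom called 1 folding enzyme higher and 5 lower, 3 processing genes higher and 5 lower, and 3 fibril-binding proteins in each direction. For basement membrane partners voom called 3 higher and 2 lower, and DESeq2 called 1 higher and 2 lower. The folding enzymes and processing genes that DESeq2 called were all lower.

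Some signs turned between settings. Fmod was at 0.49 without wild-type tumor 3 and down to -2.88 without another. With the GC correction Col5a1 turned from -0.24 to 0.31, Col5a3 from -0.38 to 0.37 and Dcn from 0.16 to -0.67. Col7a1 was at -0.013 and Col4a1 at -0.18 with the length correction, and Col4a1 was at -0.007 with the upper quartile, -0.02 without ΔAgo2 tumor 2 or 4 and -0.056 without wild-type tumor 1, with 0.26 as the highest value without 1 tumor. Col18a1 was at 0.37 with the GC correction, and Col23a1 at 0.13 with it, at 0.10 and 0.072 on the log2(TPM + 0.1) and log2(TPM + 1) scales and at 0.02 without wild-type tumor 1, with -0.42 as the lowest. Col4a2 was at 0.61 with the GC correction, 0.30 with voom, 0.14 on both TPM scales, 0.051 with total counts, 0.032 with no count filter, 0.15 without ΔAgo2 tumor 1 and 0.09 without wild-type tumor 2. The median of all genes tested was 0.16 with no count filter, 0.19 with log2(TPM + 1) and 0.27 with log2(TPM + 0.1). The log2 difference of the ratio of Col6a3 to Col6a1 stayed between 1.43 and 1.93, and to Col6a2 between 1.495 and 2.05, without 1 tumor.

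Replicate numbers did not pair the tumors, since deviations of same-numbered tumors correlated at -0.24, 0.10, -0.05 and -0.29. With the replicate block 0 collagens, 0 folding enzymes, 0 processing genes, 0 fibril-binding proteins and 0 basement membrane partners were called. With the replicate block and the GC correction 0 collagens, 1 folding enzyme, 0 processing genes and 0 basement membrane partners were called, the basement membrane median was 0.32, the median of collagens with a miR-29 match was -0.25, and Col18a1, Col23a1 and Col4a2 were at 0.32, 0.18 and 0.56. Depth limits what can be said of the 14 collagens not tested and of Col2a1, with 1 count in wild-type tumor 4.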
